A study of Mus musculus with 2 samples.

Results

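Early B-cell factors are transcription factors that bind DNA as dimers, and mice have 4 of them, Ebf1, Ebf2, Ebf3 and Ebf4. Zfp423 and Zfp521 are large nuclear proteins with many zinc fingers that bind early B-cell factors and act with or against them. These 6 genes were chosen by name, not by their values, out of 43346 mouse genes in the deposited tables. Their RNA was measured by RNA-seq in Purkinje cells, the large inhibitory output neurons of the cerebellar cortex, which were cut from tissue by laser capture. There was 1 group with 2 libraries, called pool 1 and pool 2 by the replicate numbers in the labels, and each came from a pool of 50 cells. All cells were from adult male wild-type mice aged 8 months, described as C57Bl6 with B6NCrl as the strain, with no transgene, mutation or treatment named. The pools have separate biosample entries but the same donor identifier, so they may come from 1 animal, and the spread between them may be technical. No conditions can be compared in 1 group, so the values are given with their spread and without p-values.

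In development, Ebf genes act in the last steps by which B cells, fat cells and several neurons take on their type, and Ebf2 is known in the cerebellum for its part in the subtype of Purkinje cells that lacks zebrin II (aldolase C). Zfp423 was found as a partner that restrains Ebf1 and also joins Smad proteins downstream of bone morphogenetic proteins (BMPs). Mice without Zfp423 have a malformed cerebellum with a small vermis, and changes of the human gene occur in a ciliopathy of the Joubert type. Zfp521 is its closest relative, is known from blood stem cells, bone and nerve precursors, and recruits the NuRD corepressor complex.

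Levels are the deposited TPM values, which scale each library to a fixed total and correct for gene length, and are given for pool 1 and then pool 2, and as the mean ± SD (n = 2). A gene was called detected when its TPM reached 1 in each of the pools. Counting intervals are exact Poisson at 95% and cover counting error only. Pool 1 held 23830685 expected counts and pool 2 held 27907662, of which ERCC spike-in RNA took 1.40% and 0.940%. All 12 Purkinje cell markers were detected, led by Pcp4 (16756 and 17167 TPM) and Gng13 (9570 and 9861 TPM). Markers of other cells were present too: 10 of 10 of Bergmann glia and astrocytes (summed TPM 4247 and 4515), 8 of 8 of oligodendrocytes (225 and 218), 7 of 9 of granule cells (119 and 152) and 5 of 5 of blood (651 and 2274). The pools were therefore mixtures, and fewer cells of a type and less RNA per cell cannot be told apart in them.

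Of the 6 genes, 5 were detected, beside 51.7% of 21474 protein-coding genes under the same rule. The 3 genes Ebf1, Ebf2 and Ebf3 stood above the zinc finger pair in both pools, and Ebf4 was under the threshold in both. The order by TPM was Ebf1, Ebf2, Ebf3, Zfp423, Zfp521 and Ebf4 in each pool. Each neighbouring pair in that order had separate counting intervals in each pool except Zfp423 and Zfp521, whose intervals overlapped in both pools.

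**Figure D1:**
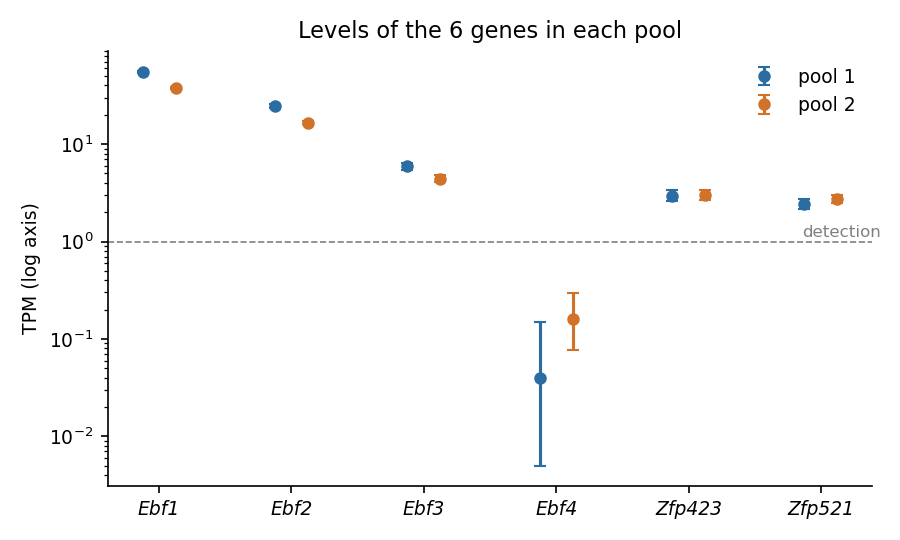
TPM of each gene on a log axis in pool 1 (blue) and pool 2 (orange), with exact Poisson 95% counting intervals as bars and the detection threshold as a dashed line. Ebf1 is highest at 55.5 and 37.7 TPM, Zfp423 and Zfp521 lie close together between 2.41 and 2.99 TPM, and Ebf4 lies under the line with wide intervals.

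Ebf1 (ENSMUSG00000057098.10, chr11:44617317-45008091, plus strand, mm10) encodes the founding member, the factor that commits lymphoid precursors to the B-cell lineage. Its level was 55.5 TPM (interval 54.0 to 56.9) in pool 1 and 37.7 TPM (36.6 to 38.7) in pool 2, or 46.6 ± 12.6. These rest on 5586 and 4787 expected counts. Pool 1 was the higher, and the counting intervals did not overlap. By mean TPM Ebf1 ranked 2348 among protein-coding genes, above 89.1% of them.

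Most Ebf1 RNA was assigned to 1 coding form in both pools. The deposited transcript table gave Ebf1-201 (5981 nt, with a last exon of 3375 nt) 70.9% and 72.2% of the TPM of the gene. Ebf1-202, which ends in a last exon of 813 nt, received 15.7% and 14.2%. The remaining coding form, Ebf1-203, received 0.990% and 1.53%. Coding forms together took 87.6% and 87.8%, and the largest of the others was Ebf1-207, a form that ends early and has no coding sequence, at 8.92% and 7.09%. The estimate is uncertain by a deposited posterior SD of 59.0 and 50.1 counts for Ebf1-201, against 4590 and 4022 counts. The coding forms differ inside as well as at their ends, at the places shown here because reads over them tell the forms apart. Ebf1-202 and Ebf1-203 hold 3 coding bases at chr11:44907904-44907906 that Ebf1-201 lacks. Ebf1-201 and Ebf1-202 hold 24 coding bases at chr11:44883932-44883955 that Ebf1-203 lacks. Capitals mark the added bases and lower case the flanking exon bases, on the plus strand of GRCm38.
Ebf1-202: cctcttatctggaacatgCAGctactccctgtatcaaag
Ebf1-201: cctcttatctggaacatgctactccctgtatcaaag
Ebf1-201 longer exon: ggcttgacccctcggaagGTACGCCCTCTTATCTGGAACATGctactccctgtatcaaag
Both additions are multiples of 3 bases. The coding length is 1776 bases in Ebf1-202, which has both, 1773 in Ebf1-201, which has the longer one, and 1752 in Ebf1-203, which has the shorter one.

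Ebf2 (ENSMUSG00000022053.9, chr14:67233292-67430918, plus strand), a factor of migrating and zebrin-negative Purkinje cells and of brown fat, was the next. Its level was 24.5 TPM (23.5 to 25.5) in pool 1 and 16.6 TPM (15.9 to 17.4) in pool 2, or 20.6 ± 5.56, from 2405 and 2083 expected counts. As for Ebf1, pool 1 was the higher without overlap of the counting intervals. It ranked 4192, above 80.5% of protein-coding genes. A single form, Ebf2-203 (5204 nt), took 92.7% and 94.3% of the TPM. Ebf2-201, with the same coding length of 1725 bases and a last exon of 1687 nt in place of 2828 nt, received 2.29% and 1.89%. Transcription on the opposite strand of the locus was low: the highest of the antisense genes, Gm6878, stood at 0.530 and 0.390 TPM.

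Ebf3 (ENSMUSG00000010476.9, chr7:137193673-137314445, minus strand), a neuronal member whose human counterpart is mutated in a syndrome with ataxia and developmental delay, was detected at a lower level. It had 5.89 TPM (5.41 to 6.40) in pool 1 and 4.42 TPM (4.05 to 4.81) in pool 2, or 5.16 ± 1.04, from 566 and 534 expected counts, and stood above 62.7% of protein-coding genes. The form that was given the larger share differed between the pools. Ebf3-201 received 47.9% in pool 1 and 85.5% in pool 2, and Ebf3-204 received 52.1% and 14.5%. In pool 1 that was 268 counts for Ebf3-201 and 298 for Ebf3-204, with posterior SDs of 74.8 and 90.3, so the order of the forms was not resolved there. In pool 2 it was 455 and 78.7 counts, with posterior SDs of 60.5 and 58.4. Ebf3-202, which has the same coding length as Ebf3-204, received 0 counts in both pools, with posterior SDs of 66.7 and 40.4. The coding difference between Ebf3-201 and Ebf3-204 is 108 bases, a multiple of 3, at chr7:137198582-137198689 near the 3' end of the coding sequence. These bases are shown in capitals, on the minus strand of GRCm38, because they are the coding bases that separate a form of 1761 coding bases from a form of 1653.
Ebf3-204: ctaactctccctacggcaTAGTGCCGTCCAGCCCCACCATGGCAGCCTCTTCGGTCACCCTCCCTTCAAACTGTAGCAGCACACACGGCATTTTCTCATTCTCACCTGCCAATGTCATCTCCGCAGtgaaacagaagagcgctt
The GENCODE M21 annotation places the antisense gene Gm45278 over these bases, at chr7:137198488-137201722. It has no row in the authors' tables, and the strand setting of their counting was not given, so reads of the pair cannot be told apart.

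Ebf4 (ENSMUSG00000053552.10, chr2:130295169-130370481, plus strand), a member that has been studied less than the others, was not detected. It had 2 counts in pool 1 and 10 in pool 2, which gave 0.0400 TPM (0.00497 to 0.148) and 0.160 TPM (0.0776 to 0.298). A count of 3 at its effective length corresponds to 0.0616 and 0.0486 TPM, so pool 1 lay under that value and pool 2 above it. All of its counts were assigned to Ebf4-206, a form annotated for nonsense-mediated decay. The genes just upstream of it were well expressed, Nop56 at 52.1 and 59.1 TPM and Idh3b at 411 and 402 TPM.

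Within the Ebf family the shares were alike in both pools although the summed level was not. The sum of the 4 genes was 85.9 TPM in pool 1 and 58.9 in pool 2, or 72.4 ± 19.1. Ebf1 made up 64.6% and 64.0% of it (64.3% ± 0.435), Ebf2 28.5% and 28.3% (28.4% ± 0.184), Ebf3 6.86% and 7.51% (7.18% ± 0.460), and Ebf4 0.0466% and 0.272%. The ratio of Ebf1 to Ebf2 was 2.26 in each pool. The ratio of Ebf1 to Ebf3 was 9.42 and 8.52, and that of Ebf2 to Ebf3 was 4.16 and 3.76.

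**Figure D2:**
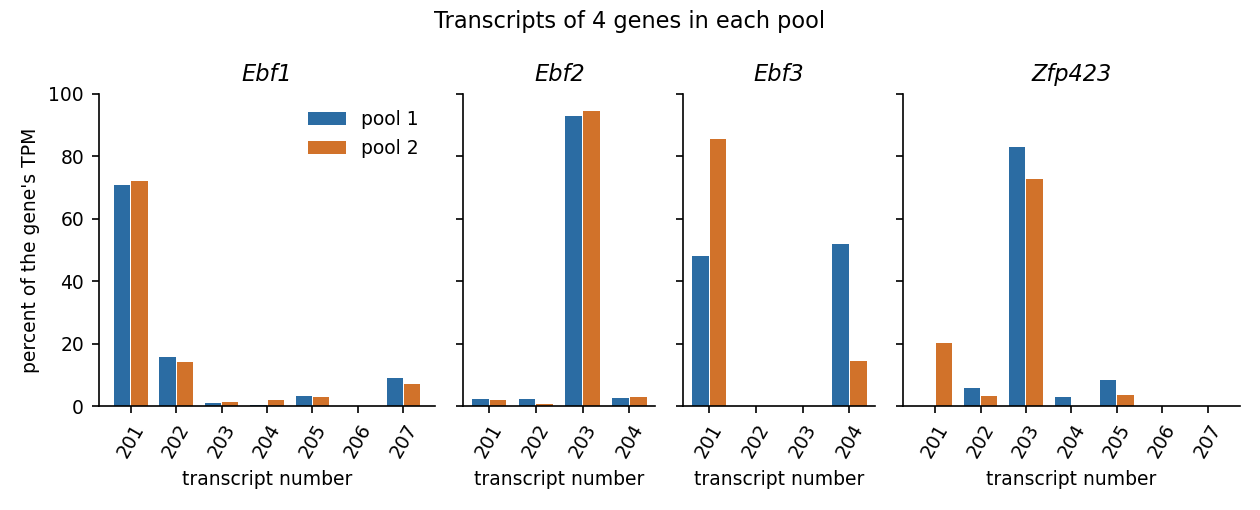
Deposited percent of the TPM of each gene assigned to each annotated transcript, in pool 1 (blue) and pool 2 (orange), for the 4 genes with more than 1 transcript that were detected. Ebf1-201, Ebf2-203 and Zfp423-203 lead in both pools. In Ebf3 the form 204 received 52.1% in pool 1, where the order of the forms was not resolved, and the form 201 received 85.5% in pool 2.

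The Ebf genes resemble each other, so the chance of reads falling to the wrong member was looked at in the transcripts themselves. Aligned coding sequences of the leading forms were identical at 79.6% of bases for Ebf1 and Ebf3, 76.6% for Ebf2 and Ebf3 and 73.8% for Ebf1 and Ebf2. The pairs with Ebf4 lay between 71.4% and 73.0%. Identical bases came in short runs, and the longest runs are printed because a read matches both genes without a mismatch only where it lies within one.
Ebf3 and Ebf4: gagatcatgtgcagccggtgctgtgac
Ebf1 and Ebf3: gagccgctgggcagcggcatgaac
Ebf2 and Ebf3: ctggcgctctacgacaggcaggg
These runs are 27, 24 and 23 bases long. The read length was not given in the sources used here. Deposited effective lengths were 99 bases shorter than the lengths in all 30069 genes checked, a difference longer than any of these runs.

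Zfp423 (ENSMUSG00000045333.11, chr8:87661810-87959595, minus strand), the partner of Ebf1 and of Smad proteins that cerebellar growth depends on, was detected at 2.96 TPM (2.59 to 3.37) in pool 1 and 2.99 TPM (2.67 to 3.35) in pool 2, or 2.98 ± 0.0212. These came from 226 and 313 expected counts, and the pools overlapped. It stood above 56.5% of protein-coding genes. Ebf1 exceeded it 18.7-fold in pool 1 and 12.6-fold in pool 2, and Ebf3 by 1.99-fold and 1.48-fold.

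Most Zfp423 RNA was assigned to the form with the innermost annotated start among the 3 long coding forms. Zfp423-203, with 6 exons and 3501 coding bases, received 82.9% and 72.6% of the TPM, or 206 and 232 counts with posterior SDs of 20.0 and 34.5. Zfp423-201 received 0% in pool 1 and 20.4% in pool 2, where its 67.7 counts had a posterior SD of 34.5. Zfp423-202, the form that starts farthest upstream, received 5.73% and 3.28%. The start of Zfp423-201 lies 91.3 kb and that of Zfp423-202 155 kb upstream of the start of Zfp423-203. The forms share their large zinc finger exon and the exons after it, so they differ at the N-terminal end of the protein, which is where the NuRD-binding motif of this class of repressors lies. Zfp423-201 holds 312 coding bases, and Zfp423-202 375, that Zfp423-203 lacks. Their first coding exons, at chr8:87895671-87895707 and chr8:87959196-87959235, are shown from the start codon on the minus strand of GRCm38, all in capitals, because these bases are absent from the leading form.
Zfp423-201 first coding exon: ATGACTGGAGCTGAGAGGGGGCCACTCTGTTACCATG
Zfp423-202 first coding exon: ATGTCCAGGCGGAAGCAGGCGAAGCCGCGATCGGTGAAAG

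**Figure D3:**
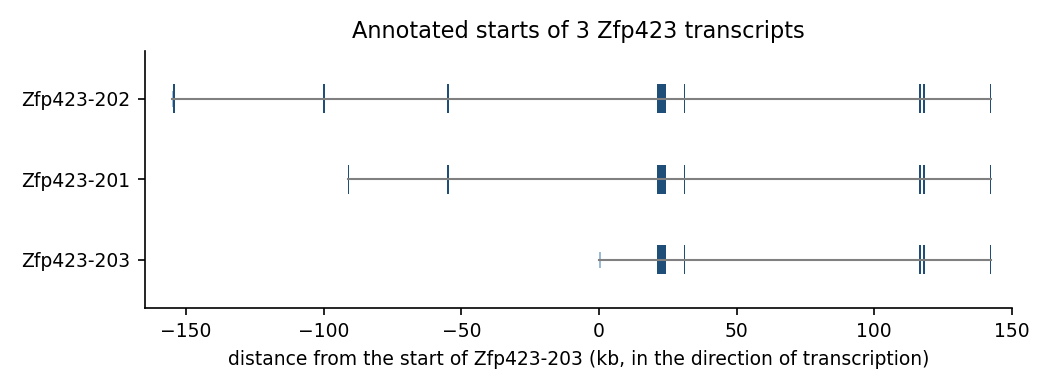
Exons of the 3 long coding transcripts of Zfp423 in the direction of transcription, with the distance from the start of Zfp423-203 in kb, taller blocks for coding bases and lines for introns. Zfp423-201 starts 91.3 kb and Zfp423-202 155 kb upstream, and from the large exon onward the exons line up.

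RefSeq (GRCm38.p6) lists promoters of this gene at 2 of these starts, at chr8:87804390-87804689 for the start of Zfp423-203 and at chr8:87959546-87959845 for that of Zfp423-202. Both are printed because the assigned RNA differs between them by the shares above, each from 250 bases before to 50 after the start on the minus strand.
Zfp423-203 promoter: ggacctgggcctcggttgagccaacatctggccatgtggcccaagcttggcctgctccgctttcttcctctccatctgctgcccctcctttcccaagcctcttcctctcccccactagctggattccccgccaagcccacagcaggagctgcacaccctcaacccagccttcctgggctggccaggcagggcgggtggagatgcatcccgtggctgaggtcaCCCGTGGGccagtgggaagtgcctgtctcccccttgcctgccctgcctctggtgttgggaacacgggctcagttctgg
Zfp423-202 promoter: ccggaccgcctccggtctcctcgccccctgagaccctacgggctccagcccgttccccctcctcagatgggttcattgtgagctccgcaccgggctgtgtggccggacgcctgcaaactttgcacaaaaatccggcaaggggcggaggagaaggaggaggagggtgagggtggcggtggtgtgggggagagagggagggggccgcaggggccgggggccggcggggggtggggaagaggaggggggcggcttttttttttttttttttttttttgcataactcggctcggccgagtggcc
G and C made up 65.0% of the first and 65.7% of the second. The letters CCCNNGGG, the core of the motif bound by early B-cell factors and a palindrome that reads the same on both strands, occurred once in the first, marked in capitals, and not in the second. A match was present in 13.7% of all 32851 promoters that RefSeq lists there. Of the other family members in the table, the Ebf3 promoter held 1 match to CCCNNGGG, while the promoters listed for Ebf1 and Ebf4 held none. A match is a description of the letters and no measure of binding.

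The paralogue of Zfp423 differed little from it in level. Zfp521 (ENSMUSG00000024420.8, GRCm38 chromosome 18, 13687013 to 13972787, minus strand) is known to recruit NuRD, which need not set it apart from Zfp423. It was detected at 2.41 TPM (2.14 to 2.70) in pool 1 and 2.75 TPM (2.49 to 3.03) in pool 2, or 2.58 ± 0.240. These came from 289 and 419 expected counts, more than for Zfp423, since its transcript of 6152 nt is the longer. Per length the ratio of Zfp423 to Zfp521 was 1.23 and 1.09, and their counting intervals overlapped in each pool. The 1 transcript that the files list for it took all of its counts. The coding sequences of the pair were identical at 73.0% of aligned bases, with a longest shared run of 35 bases. The summed level of the pair was 5.37 and 5.74 TPM (5.55 ± 0.262), and was not lower in pool 2.

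Between the pools, Ebf1, Ebf2 and Ebf3 were lower in pool 2 and the zinc finger genes were not. The log2 ratio of TPM + 1, pool 2 over pool 1, was -0.55 for Ebf1, -0.53 for Ebf2 and -0.35 for Ebf3, and without the added 1 the counting intervals of these ratios were -0.61 to -0.50, -0.64 to -0.47 and -0.59 to -0.24. It was 0.01 for Zfp423 and 0.14 for Zfp521, and without the added 1 their intervals were -0.24 to 0.27 and -0.03 to 0.41, which include 0. Ebf4, with few counts, stood at 0.16, and without the added 1 at 2.00 with an interval of -0.23 to 5.23. On this scale none of the 6 genes passed 1.5-fold in either direction. Of 11445 protein-coding genes with a mean TPM of at least 1, 6.23% were lower in pool 2 by that much and 3.1% were higher. With 0.1 added in place of 1, Ebf4 alone of the 6 passed 1.5-fold, at 0.89, beside 4.98% of those genes that were higher by that much. The median over the 6 genes was -0.17, and over all those protein-coding genes it was -0.08, with 59.3% of them lower in pool 2.

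The sign of these pool ratios depends on the scale. ERCC spike-ins themselves had a median log2 ratio of -0.66 over 51 entries, and relative to them Ebf1 stood at 0.11, Ebf2 at 0.13, Ebf3 at 0.31, Zfp423 at 0.67, Zfp521 at 0.80 and Ebf4 at 0.82, so none of the 6 genes was lower in pool 2. The last 3 were higher by more than 1.5-fold on this scale, as were 49.6% of the 11445 protein-coding genes. The shift to this scale is by itself more than 1.5-fold, so a gene with no counts in either pool would pass too. Ebf4 rests on 2 and 10 counts and, unlike the 11445 genes, has a mean TPM under 1. Ratios also moved with gene length: the median was 0.13 for genes under 1000 nt and -0.26 for those of 4000 nt or more. Relative to genes of their own length class, Ebf1 stood at -0.29, Ebf2 at -0.28, Ebf3 at -0.09, Zfp423 at 0.15 and Zfp521 at 0.39. On each of these scales Ebf1, Ebf2 and Ebf3 lay below Zfp423 and Zfp521, but that order was largely fixed in advance. The spike-in scale shifts every gene by the same amount. Ebf1, Ebf2, Ebf3 and Zfp521 fall in the same length class, so only Zfp423 could change place after that adjustment. Zfp423 itself lies at the edge of its class, with effective lengths of 3845 nt in pool 1 and 4153 nt in pool 2 and a limit of 4000 nt. The median log2 ratio was -0.13 in its class and -0.26 in the class above, so its adjusted value depends on that limit. The part of length in the gap between the Ebf genes and the zinc finger pair was not tested further.

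**Figure D4:**
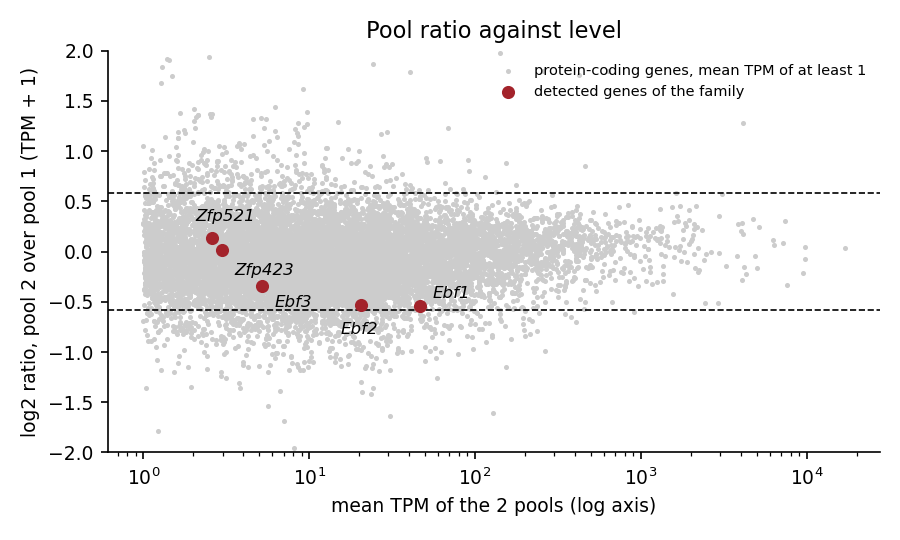
Log2 ratio of TPM + 1, pool 2 over pool 1, against the mean TPM on a log axis, for 11445 protein-coding genes (grey) and the 5 detected genes of the family (red), with dashed lines at 1.5-fold and 7 grey genes beyond the plotted range. Ebf1 and Ebf2 lie just inside the lower line at -0.55 and -0.53, and Zfp423 and Zfp521 lie near 0.

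Purkinje cells fall into zebrin-positive and zebrin-negative stripes, and genes of both also differed between the pools. All 3 zebrin-positive genes were higher in pool 2: Aldoc (2409 and 5861 TPM), Slc1a6 (69.9 and 104) and Plcb3 (7.85 and 11.8). Of the zebrin-negative genes, Plcb4 (352 and 177 TPM) and Nefh (88.9 and 66.2) were lower in pool 2. Their log2 ratios were -0.99 and -0.42, so relative to the spike-ins at -0.66 Plcb4 was lower, and Nefh and Ebf2 were not. Aldoc is also a gene of astrocytes. Of the 10 markers of Bergmann glia and astrocytes 6 were lower in pool 2, with a median log2 ratio of -0.20, although their sum was higher there (4247 and 4515 TPM), with Apoe at 1825 and 2492. The part of the zebrin makeup of the pools in the Ebf2 difference was not tested.

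Early B-cell factors are also made by other cells that laser capture could bring along. Ebf1 is known in pericytes and smooth muscle, fat and fibroblast precursors and B cells. Of 8 pericyte and smooth muscle markers 3 were detected, with Vtn at 23.9 and 25.6 TPM and Rgs5 at 14.0 and 12.4, and a summed level of 45.1 and 41.5 TPM. Among the lower genes of this list were Pdgfrb at 1.47 and 1.11 TPM, Myh11 at 0.450 and 0.0900 and Acta2 at 3.92 and 0.0700. Of 8 endothelial markers 5 were detected (summed TPM 85.9 and 113), led by Ly6c1 at 62.7 and 89.9 and Slco1a4 at 14.2 and 13.5. Of 6 meningeal fibroblast markers 3 were detected (13.4 and 10.7), led by Dcn at 9.08 and 6.07 and Col1a2 at 1.87 and 2.57. None of 9 B-cell markers was detected, their sum was 0.470 and 0.700 TPM, and Igll1, Pou2af1 and Blk had no counts in either pool. Ebf1 at 55.5 and 37.7 TPM stood above each listed mural and fibroblast marker in both pools. Levels of different genes do not tell which cells the Ebf1 RNA came from. How much of it came from mural cells, fibroblasts or the other listed cells was not tested. Of the other lists, 5 of 6 markers of molecular layer interneurons (47.6 and 66.5 TPM summed), 3 of 5 of Golgi cells (19.3 and 31.7), 1 of 3 of unipolar brush cells (2.45 and 3.64), 5 of 8 of microglia (20.7 and 33.3) and 1 of 4 of oligodendrocyte precursors (2.62 and 3.69) were detected.

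The partners that act with Ebf1 in B cells were mostly under the threshold. Of 6 such factors 2 were detected, Foxo1 at 2.84 and 2.49 TPM and the E protein gene Tcf3 at 1.54 and 1.52 TPM. Pax5, the B-cell identity factor, had no counts, and Ikzf1 stood at 0.01 and 0.02 TPM. The same held for fat cells, where Ebf2 and Zfp423 act on Pparg: 3 of 9 genes were detected, Pparg at 2.32 and 3.25 TPM, Cidea at 1.61 and 3.25 and Cebpb at 1.65 and 2.96. Adipoq, the gene of the fat cell hormone adiponectin, had no counts, and Cebpa stood at 0.04 and 0.06 TPM. These 2 lists were below the 51.7% of all protein-coding genes in the share detected.

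For the pathways that Zfp423 joins, the detected genes are given beside the 51.7% of all protein-coding genes detected. With 6 to 17 genes per list, differences between the lists are a description only. Of 17 BMP and Smad genes 12 were detected, led by the Id genes, textbook targets of BMP signalling: Id2 at 2391 and 2110 TPM, Id4 at 128 and 117 and Id3 at 50.0 and 55.9. The ligands Bmp2 (0.280 and 0.110 TPM) and Bmp4 (0.0300 and 0.0800) were under the threshold. Of 6 retinoid receptors, whose DNA binding Zfp423 is known to aid, 2 were detected, Rxrb at 5.95 and 4.82 TPM and Rarb at 3.43 and 2.65. Rara (0.150 and 0.130) and Rarg (0.39 and 0.5) were under the threshold. Of 8 Notch pathway genes 5 were detected, with Hes1 at 11.1 and 9.69 TPM, Hey1 at 6.34 and 11.0 and the DNA-binding effector Rbpj at 3.72 and 2.92. Hes5, on whose promoter Zfp423 is known to act, was at 0 and 0.340 TPM, and the ligand gene Dll1 at 1.08 and 0.930. The receptor gene Notch1 was under the threshold at 0.77 and 0.51 TPM, and the ligand gene Jag1 was detected at 3.14 and 2.62. All 9 genes of the ciliopathy list were detected, with the DNA damage sensor Parp1, which binds Zfp423, at 48.6 and 42.7 TPM, Ahi1 at 20.9 and 24.7 and the ciliary phosphatase gene Inpp5e at 15.3 and 16.4.

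RNA of nearly all listed genes of the corepressor that Zfp521 recruits was detected. The pools were mixtures, so whether any 1 cell type held the full complex was not tested. For this list and the next, the share of all protein-coding genes detected was 51.7%. Of 14 NuRD genes 13 were detected, led by the histone-binding subunits Rbbp7 (105 and 91.4 TPM) and Rbbp4 (60.9 and 57.5) and the deacetylase Hdac2 (50.4 and 51.1), and only Mta1, at 0.960 and 1.19 TPM, was short of the threshold, in pool 1. Of 8 other zinc finger repressors that carry such an N-terminal motif 3 were detected: Bcl11a at 47.0 and 43.1 TPM, Sall2 at 9.52 and 7.80 and Zfpm2 at 3.87 and 3.68. Sall4 had no counts, Bcl11b stood at 0.0900 and 0.0800 TPM and Sall1 at 0.0900 and 0.0200. The level of Bcl11a was thus more than that of Zfp423 and Zfp521 together in both pools.

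**Figure D5:**
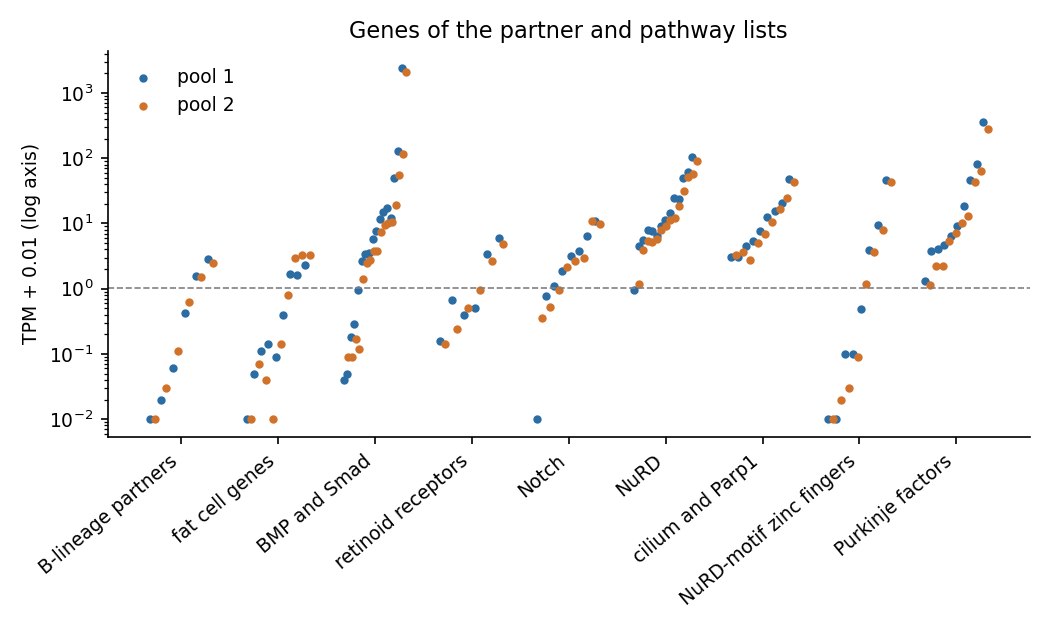
TPM of every gene in 9 lists of partners and pathways, on a log axis after adding 0.01, in pool 1 (blue) and pool 2 (orange), ordered by level within each list, with the detection threshold as a dashed line. Id2 is the highest point at 2391 and 2110 TPM, nearly all NuRD genes lie above the line, and most B-lineage and fat cell genes lie under it.

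The list of 10 transcription factors known from Purkinje cells was detected in full, beside 51.7% of all protein-coding genes. Rora, the orphan receptor gene that is mutated in the staggerer mouse, led at 354 and 281 TPM, followed by the LIM factor gene Lhx1 at 82.4 and 64.4. The next of the list was Bcl11a, at 47.0 and 43.1 TPM. Ebf1, at 55.5 and 37.7 TPM, stood above Bcl11a in pool 1 and below it in pool 2. By the distance in log2(TPM + 1) over the 2 pools, among the Purkinje cell factors, retinoid receptors, BMP and Smad genes and NuRD-motif zinc fingers, the nearest gene to Ebf1 was Bcl11a (distance 0.30). For Ebf2 it was Foxp2 (0.50; 18.6 and 13.0 TPM), a forkhead factor of Purkinje cells, and for Ebf3 it was Rxrb (0.10). For Zfp423 it was Smad9 (0.17; 3.34 and 2.71 TPM), for Zfp521 Smad5 (0.14; 2.66 and 2.50 TPM), and for Ebf4 Smad6 (0.10; 0.0400 and 0.0800 TPM). With 2 pools, nearness means little more than a like level.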

How the data were processed

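RNA over 200 nt from 2 laser-captured pools was sequenced. Laser capture is linked in the labels for both pools and a Smart-seq protocol for pool 2 alone. The authors quantified genes and transcripts on mm10 with GENCODE M4, per the submitters' notes. Aligner, quantifier, strand setting and the library protocol of pool 1: not given in the sources used here. Expected counts, as deposited, are the authors' estimates of reads for every gene and transcript, without normalization and with shared reads divided. TPM was computed by the authors over all entries, spike-ins included. The transcript tables also give, as deposited, the percent of a gene's TPM in each transcript, lengths and the posterior SD of counts.

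The 69691 entries held 43346 mouse genes (42462 of them named), 97 spike-ins and 26248 entries with numeric identifiers, which were left out. Names, coordinates and transcript structures came from GENCODE M21 and promoters from RefSeq, which held 6 promoters of 4 of the 6 genes. Ratios are log2(TPM + 1), which understates ratios of low genes. Alternatives were other thresholds and pseudocounts, TMM scaling (edgeR 4.0.16) and DESeq2 1.42.0 size factors in R 4.3.3 on rounded expected counts, the spike-in scale, length classes, shares of counts and each pool alone. The rest was done in Python 3.11.15 with pandas 2.3.3, numpy 2.4.6 and matplotlib 3.10.9, and scipy 1.17.1 gave the counting intervals. The TMM and DESeq2 scales and the medians by length class were checked on simulated data, and the other calculations were not. No molecular identifiers mark independent molecules, so intervals cover counting error only. The genes and lists were chosen with earlier results of these data known. Named genes are the 6 genes, the 3 highest detected and up to 2 undetected genes by alphabet of each pathway list, the 2 highest of each marker list, transcripts with at least 10% of a gene in either pool, overlapping or neighbouring genes and the nearest gene by level. The remaining named genes and transcripts were chosen after their values were seen. Results of some listed genes are not reported here.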

Additional observations from a re-analysis of the deposited data

How the results depend on the processing

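Of 97 alternative values for 27 results, 77 stayed within a set tolerance and 20 moved by more. The tolerance was the SD of the pools for levels, shares and the ratio of Zfp521 over Zfp423, and 1.5-fold for counts of genes. For the ratios between pools it was a margin taken from the width of the counting interval, which is wide for Ebf4. With 2 pools, the value of either pool alone always lies within their SD, so those values are no measure of stability. No value had a statistical test, but calls by threshold changed. Relative to the spike-ins, a shift that is itself more than 1.5-fold, 3 of the 6 genes passed 1.5-fold in place of 0. With a pseudocount of 0.1, Ebf4 alone passed it. At a TPM of at least 5, 2 of the 6 genes were detected in place of 5, and 42 genes of the pathway lists in place of 65. By expected counts the share of Ebf1 in the Ebf family was 64.9% in place of 64.3%, and the log2 ratio of Zfp521 over Zfp423 was 0.39 in place of -0.15, since counts grow with transcript length. Relative to the spike-ins, the median log2 ratio of pool 2 over pool 1 over the 6 genes was 0.49 in place of -0.17. It was 0.03 after adjustment for length class, which also changed its sign, and -0.06 with TMM scaling. With either pool left out, 5 of the 6 genes were detected, the share of Ebf1 lay between 64.0% and 64.6% and the log2 ratio of Zfp521 over Zfp423 between -0.22 and -0.09. No paired analysis was possible because there is 1 group and no contrast. Depth limits Ebf4, at 2 and 10 counts, and the transcript shares of Ebf3 and Zfp423, whose posterior SDs are large beside their counts.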

Other observations

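The processed transcript Ebf1-207 had 380 and 260 counts, although it has no coding sequence. Its last exon of 3420 nt lies at chr11:44643401-44646820 and makes up most of its 3968 nt. The antisense gene Gm12158, which lies inside Ebf1 at chr11:44659522-44662676, stood at 4.83 and 4.41 TPM from 51 and 59 counts, above the antisense genes measured within Ebf2. Without a stated strand setting, its reads and those of Ebf1 cannot be told apart where they overlap.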
